A study of Arabidopsis thaliana with 18 samples.

Results

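AT5G20790, AT2G04460 and AT5G17340 are 3 Arabidopsis thaliana genes whose RNA in roots was low with phosphate, very high after it was withdrawn, and low again once it was returned. In shoots the same held for AT5G20790 and AT2G04460 but not for AT5G17340. The 3 genes were chosen by the size of the rise and fall itself. Each was read by 1 probe set (a group of short probes for 1 transcript) of the Affymetrix ATH1 array, 246001_at for AT5G20790, 263851_at for AT2G04460 and 250091_at for AT5G17340, so the genes make up 3 of the 22810 probe sets measured, and 3 of the 13350 genes that could be named. Their response (starved minus mock) and recovery (replete minus starved) are therefore described below without a test, and so is replete minus mock, which is the sum of these 2. Tests are given for how roots differed from shoots in replete and in mock plants. The choice did not use this organ difference itself, but it drew on the same arrays. A low mock or replete value in roots widens the root rise or fall, so these tests are not independent of the choice. Whether 263851_at reads AT2G04460 alone could not be checked without its probe sequences, so every value given for that gene, whose annotation has 0 transcripts, is strictly that of its probe set.

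All plants were wild-type Col-0, raised for 20 days in basal MGRL hydroponic medium. Replete plants spent 10 further days without phosphate and then 3 days in full-strength MGRL medium, and were 33 days old when sampled. Starved plants spent the same 10 days without phosphate, with MES buffer in its place, and were 30 days old, as were mock plants, which were kept in full-strength medium. Roots and shoots were collected separately, with 3 arrays for each organ and condition and 18 arrays in all. Recovery and age changed together, and no group of the older age was left in full medium. Each group holds 3 biological replicates by its labels, and the study's text speaks of replicate experiments without tying them to array numbers, so each p-value measures the spread between these arrays.

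Phosphate is taken up by roots and is a scarce nutrient in many soils. When it runs short, plants switch on a broad set of genes through transcription factors of the PHR1 type, which SPX proteins hold back while phosphate is plentiful, and the set includes phosphate transporters, secreted phosphatases and enzymes that replace phospholipids with other lipids. Part of this programme runs in roots alone and part in the whole plant, and much of it is reversed soon after phosphate returns. In the RefSeq gene table, AT5G20790 and AT5G17340 are protein-coding genes on chromosome 5, with 2 transcripts and 1 transcript. AT2G04460 lies on chromosome 2 and is listed as a pseudogene with 0 transcripts. None of the 3 has a gene symbol there.

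Expression was given in log2 units, so a difference of 1 is a doubling, and ran from 1.33 to 13.45 over the whole table. The median of an array lay between 5.88 and 5.98. A probe set was called different at a Benjamini-Hochberg adjusted p at or under 0.001 in the limma fit. The organs matched their labels: the 3 measured green-tissue genes (RCA, LHCB4.1 and PRK) had log2 differences of -8.86 to -6.33, mock roots minus mock shoots, and the 3 measured root genes (PYK10, EXPA7 and EXPA18) had differences of 4.12 to 5.05. In bulk tissue, fewer cells of a type and less RNA per cell cannot be told apart.

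AT5G20790 went through the widest swing of any probe set in both organs. Its log2 values on arrays 1, 2 and 3 were 3.59, 3.60 and 3.78 in replete roots, 11.85, 11.95 and 11.20 in starved roots, and 3.39, 3.40 and 3.64 in mock roots. In shoots they were 3.88, 4.31 and 4.22 in replete plants, 10.70, 10.96 and 9.36 in starved plants, and 4.25, 4.32 and 4.50 in mock plants. The starved arrays thus stood far above all others in each organ, while replete and mock values ran into each other. The group means were 3.66 ± 0.11 in replete roots, 11.67 ± 0.41 in starved roots and 3.48 ± 0.14 in mock roots (SD, n = 3 each). In shoots they were 4.14 ± 0.23 in replete, 10.34 ± 0.86 in starved and 4.36 ± 0.13 in mock plants (SD, n = 3 each). From highest to lowest, the means ran starved root, starved shoot, mock shoot, replete shoot, replete root and mock root. Neighbours in this order overlapped only between mock and replete within an organ.

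The root response of AT5G20790 was 8.19 (SE 0.29), which is 292-fold with a 95% confidence interval of 190.4 to 448. The shoot response was 5.98 (SE 0.29), or 63.3-fold with an interval of 41.25 to 97.0. Each SE and interval rests on 1 spread shared by all 6 groups. The SD of AT5G20790 was 0.41 pooled over all 6 groups, and 0.61 over the 2 groups of its shoot response. That interval is thus too narrow, and no interval of a response allows for the choice of genes on these arrays. The recovery was -8.01 (SE 0.29) in roots and -6.20 (SE 0.29) in shoots, the largest fall of any probe set in each organ. Measured on the log2 scale, 97.8% of the rise was undone in roots and 104% in shoots within the 3 days of resupply. Detection above background was not examined, so the folds of all 3 genes over their low mock values are ratios of array values and cannot be read as exact ratios of RNA.

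**Figure D1:**
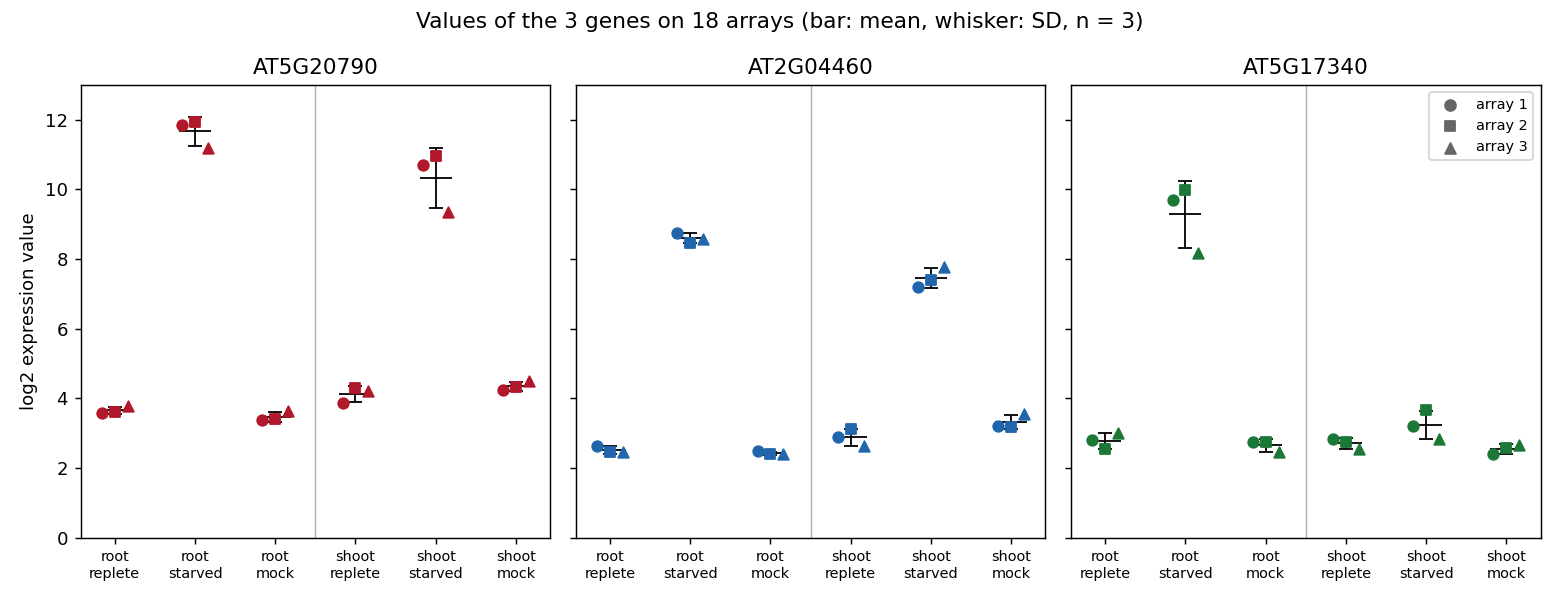
Log2 expression value (vertical axis) of AT5G20790, AT2G04460 and AT5G17340 on each of the 18 arrays, by organ and condition, with circles, squares and triangles for arrays 1, 2 and 3, a bar for the group mean and whiskers for the SD (n = 3). AT5G20790 and AT2G04460 are high in starved roots and starved shoots (means of 11.67 and 10.34, and of 8.60 and 7.46), AT5G17340 is high only in starved roots (9.29), and starved array 3 lies low for AT5G20790 and AT5G17340.

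AT2G04460 followed the same course at smaller size and with less scatter. Its log2 values on arrays 1, 2 and 3 were 2.64, 2.46 and 2.46 in replete roots, 8.75, 8.46 and 8.59 in starved roots, and 2.48, 2.40 and 2.40 in mock roots. In shoots they were 2.90, 3.12 and 2.64 in replete plants, 7.21, 7.39 and 7.78 in starved plants, and 3.21, 3.19 and 3.55 in mock plants. Starved arrays were again clear of the rest, and in shoots every replete array lay below every mock array. The means were 2.52 ± 0.10 in replete roots, 8.60 ± 0.15 in starved roots and 2.43 ± 0.05 in mock roots, and 2.89 ± 0.24 in replete shoots, 7.46 ± 0.29 in starved shoots and 3.32 ± 0.20 in mock shoots (SD, n = 3 each). The order was that of AT5G20790. Replete and mock roots overlapped, and the lowest replete shoot array equalled the highest replete root array at 2.64.

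The response of AT2G04460 was 6.17 (SE 0.15) in roots, or 72.2-fold with a 95% interval of 58.2 to 89.5. In shoots it was 4.14 (SE 0.15), or 17.7-fold with an interval of 14.25 to 21.9. The recovery was -6.08 (SE 0.15) in roots, 98.5% of the rise, and -4.57 (SE 0.15) in shoots, 110% of it, since the replete shoot mean ended under the mock mean.

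AT5G17340, which the TAIR text in the study's supplement calls a putative membrane lipoprotein, was high in starved roots alone. Its log2 values on arrays 1, 2 and 3 were 2.80, 2.55 and 3.00 in replete roots, 9.71, 9.97 and 8.18 in starved roots, and 2.74, 2.76 and 2.45 in mock roots. In shoots they were 2.85, 2.75 and 2.54 in replete plants, 3.21, 3.66 and 2.84 in starved plants, and 2.41, 2.57 and 2.67 in mock plants. The starved root arrays stood apart from the other 15, whereas the starved shoot arrays cleared the mock arrays narrowly and overlapped the replete ones. Of all probe sets, 16.0% had every starved root value above every mock root value, and 9.80% had this in shoots. As the choice of genes rested on these arrays, nothing is read from those shares.

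The means of AT5G17340 were 2.78 ± 0.23 in replete roots, 9.29 ± 0.97 in starved roots and 2.65 ± 0.17 in mock roots, and 2.71 ± 0.16 in replete shoots, 3.24 ± 0.41 in starved shoots and 2.55 ± 0.13 in mock shoots (SD, n = 3 each). Below starved roots the order was starved shoot, replete root, replete shoot, mock root and mock shoot, and each group overlapped the next. The root response was 6.64 (SE 0.32), or 99.5-fold with an interval of 62.1 to 159.4, and the root recovery was -6.50 (SE 0.32), 98.0% of the rise. The 2 groups of the root response had a pooled SD of 0.69, against 0.45 over all 6 groups, so its interval is too narrow. In shoots the response was 0.69 (SE 0.32), or 1.61-fold with an interval of 1.005 to 2.58. The shoot recovery was -0.52 (SE 0.32, interval -1.20 to 0.16), 76.2% of that small rise.

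The share of the root response that was seen in shoots set the genes apart. On the log2 scale it was 73.1% for AT5G20790, 67.1% for AT2G04460 and 10.3% for AT5G17340. Starved roots exceeded starved shoots by 1.33, or 2.51-fold, for AT5G20790. The same difference was 1.14, or 2.20-fold, for AT2G04460 and 6.05, or 66.3-fold, for AT5G17340. No starved root value of the 3 genes overlapped a starved shoot value, an arrangement that 39.8% of all probe sets had in this direction. These differences use the arrays that chose the genes and carry no test.

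By size of the rise, the genes ranked 1, 4 and 2 of all probe sets in roots, in the order AT5G20790, AT2G04460 and AT5G17340, and 1, 6 and 358 in shoots. Probe sets just beyond them were close in size. In roots an unnamed probe set (rank 3, response 6.58, SE 0.28) lay between AT5G17340 and AT2G04460. OCT1, an organic cation and carnitine transporter, came after AT2G04460 at 6.16 (SE 0.34). In shoots the probe sets ranked 2 to 5 had no gene name here, and AT1G08310 (rank 8, response 3.82, SE 0.23) was the next named gene after AT2G04460. By size of the fall in the recovery, the ranks were 1, 7 and 3 in roots and 1, 6 and 855 in shoots.

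**Figure D2:**
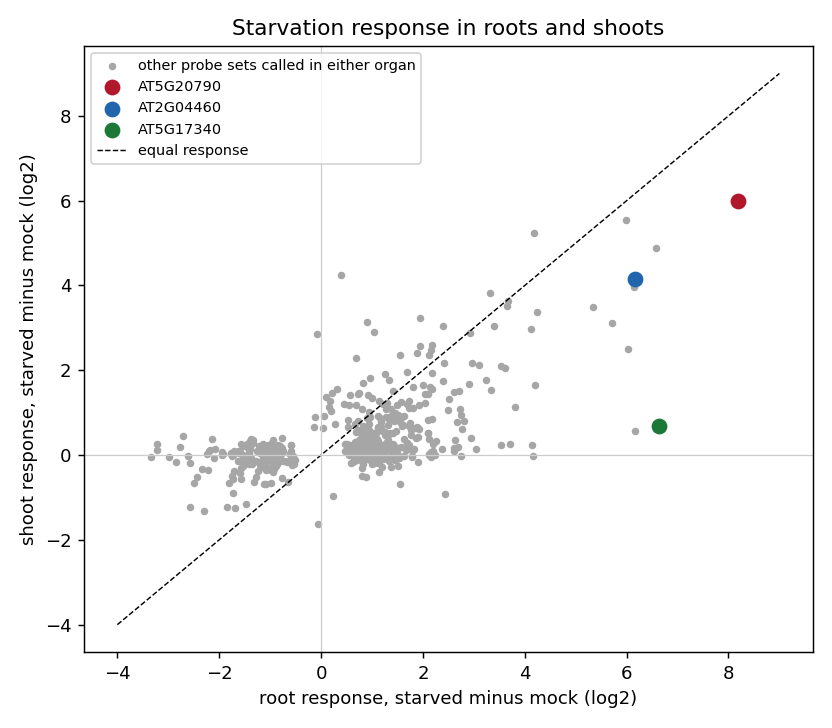
Shoot response against root response (both starved minus mock, log2) for AT5G20790, AT2G04460 and AT5G17340 (large points) and for every other probe set called in either organ (grey), with a dashed line where both organs would respond alike. AT5G20790 lies at 8.19 in roots and 5.98 in shoots, AT2G04460 at 6.17 and 4.14, and AT5G17340 far to the right at 6.64 with only 0.69 in shoots.

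How far the genes stood from the mock level after 3 days with phosphate is given as a description, since a strong rise and a strong fall were what chose them. In roots, replete minus mock was 0.18 (SE 0.29, 95% interval -0.44 to 0.80) for AT5G20790. It was 0.09 (SE 0.15, interval -0.22 to 0.40) for AT2G04460 and 0.13 (SE 0.32, interval -0.55 to 0.81) for AT5G17340. The intervals reach up to 0.81 on the log2 scale. Replete and mock root values overlapped for each gene, while 22.7% of all probe sets had no overlap here.

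In shoots the difference between replete and mock plants was -0.22 (SE 0.29, interval -0.84 to 0.40) for AT5G20790 and 0.16 (SE 0.32, interval -0.52 to 0.84) for AT5G17340. AT2G04460 stood lower in replete shoots by 0.43 on the log2 scale (difference -0.43, SE 0.15, interval -0.74 to -0.12). Its 3 replete values lay under its 3 mock values, yet 24.5% of all probe sets had no overlap in this comparison. The root value of replete minus mock less the shoot value came to 0.40 (SE 0.41) for AT5G20790, 0.52 (SE 0.21) for AT2G04460 and -0.03 (SE 0.45) for AT5G17340.

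In mock plants AT2G04460 read lower in roots than in shoots, the opposite direction to the starved plants. Its values were 2.48, 2.40 and 2.40 in mock roots and 3.21, 3.19 and 3.55 in mock shoots, a difference of -0.89 (SE 0.15, interval -1.20 to -0.58, adjusted p = 4.41e-05), or 1.85-fold lower in roots. These values lay low in the table, where no array median was under 5.88, and detection above background was not examined. The difference is thus one of array values and need not be one of RNA, as with the other organ differences below. AT5G20790 had a difference of nearly the same size, -0.88 (SE 0.29, interval -1.50 to -0.26, adjusted p = 0.0151), which did not pass the threshold. Its mock root values of 3.39 to 3.64 lay under its mock shoot values of 4.25 to 4.50. The fit shares 1 spread among all 6 groups, and the widest group of AT5G20790 was its starved shoots (SD 0.86). With starved shoot array 3 left out its adjusted p was 0.000238 for the same difference, which passed. AT5G17340 showed a difference of 0.10 (SE 0.32, interval -0.58 to 0.78, adjusted p = 0.817). Thus 1 of 3 genes was called lower in mock roots, against 18.3% of all probe sets, and 2 of 3 had mock roots wholly below mock shoots, against 27.1%. The mock arrays also entered the choice of genes, and a low mock root value widens the root rise, so nothing is read from these counts.

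In replete plants the organ differences were smaller in size. They came to -0.48 (SE 0.29, interval -1.10 to 0.14, adjusted p = 0.162) for AT5G20790, -0.37 (SE 0.15, interval -0.68 to -0.06, adjusted p = 0.0376) for AT2G04460 and 0.07 (SE 0.32, interval -0.61 to 0.75, adjusted p = 0.862) for AT5G17340. None was called by limma, whereas 45.9% of all probe sets were, and 1 (AT2G04460) had an unadjusted p under 0.05. With starved shoot array 3 left out, the limma adjusted p of AT5G20790 was 0.0201 for the same difference, which still did not pass. Only AT5G20790 had replete roots wholly below replete shoots, as had 29.0% of all probe sets.

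**Figure D3:**
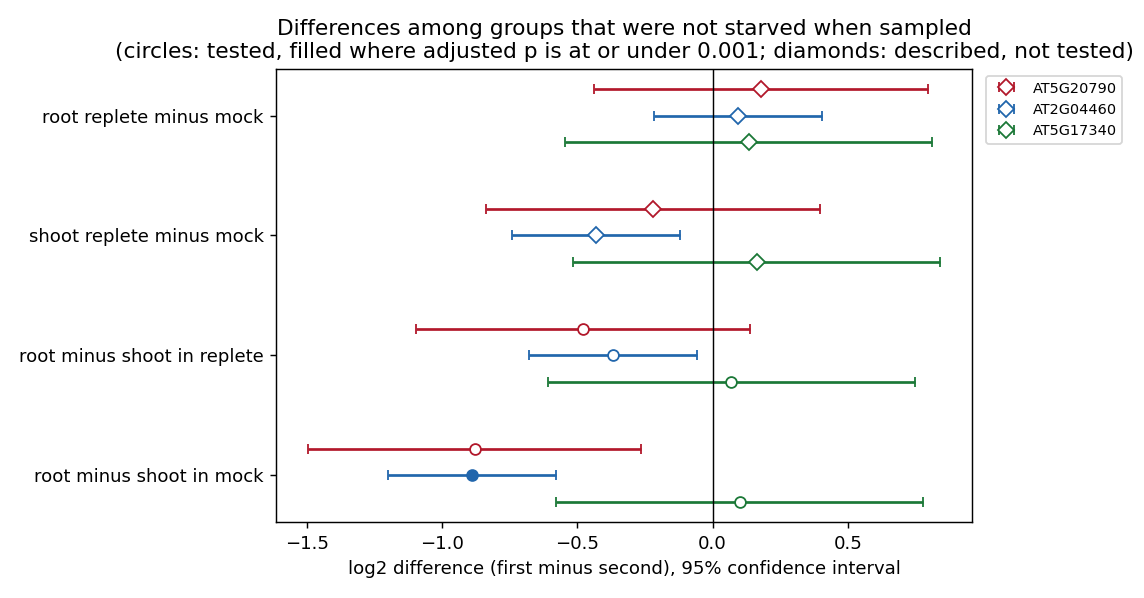
Log2 differences with 95% confidence intervals (horizontal axis, first group minus second) for AT5G20790, AT2G04460 and AT5G17340 among replete and mock plants, with circles for the tested differences between organs, filled where the limma adjusted p is at or under 0.001, and diamonds for replete minus mock, which is described only. AT2G04460 in mock plants, lower in roots than in shoots at -0.89, is the only filled circle, and AT5G20790 lies close to it at -0.88 with a wider interval.

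How high the genes stood in starved plants varied between arrays. The pooled within-group SD was 0.41 for AT5G20790 and 0.45 for AT5G17340, wider than that of 97.0% and 97.8% of probe sets, and 0.19 for AT2G04460, wider than 70.1%. The median over all probe sets was 0.15. For both of the wider genes starved array 3 was the lowest starved array in each organ. Set against the mean of starved arrays 1 and 2, it stood at -0.70 in roots and -1.47 in shoots for AT5G20790, and at -1.66 in roots and -0.60 in shoots for AT5G17340. AT2G04460 did not share this, with -0.02 in roots and 0.48 in shoots, where array 3 was its highest.

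The shortfall on starved array 3 extended to the other probe sets called higher. In roots, 241 of those 351 (68.7%) had their lowest starved value on array 3, with a median of -0.24 against the other arrays, whereas over all probe sets 34.4% did and the median was 0.02. In shoots, 73 of 86 (84.9%) were lowest on array 3 with a median of -0.50, and over all probe sets 36.1% were and the median was -0.01. With both starved arrays 3 left out, the root responses were 8.42 for AT5G20790, 6.18 for AT2G04460 and 7.19 for AT5G17340, and the shoot responses were 6.47, 3.98 and 0.89 in the same order. The mean level of the 3 root genes named above also moved with the condition in roots, at 9.05 to 9.23 in replete, 9.89 to 10.04 in starved and 9.52 to 9.71 in mock arrays. The mean of the 3 green-tissue genes ran at 5.30 to 5.55 in replete roots, 4.82 to 5.24 in starved roots and 4.81 to 5.50 in mock roots. Their part in the values above was not tested.

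**Figure D4:**
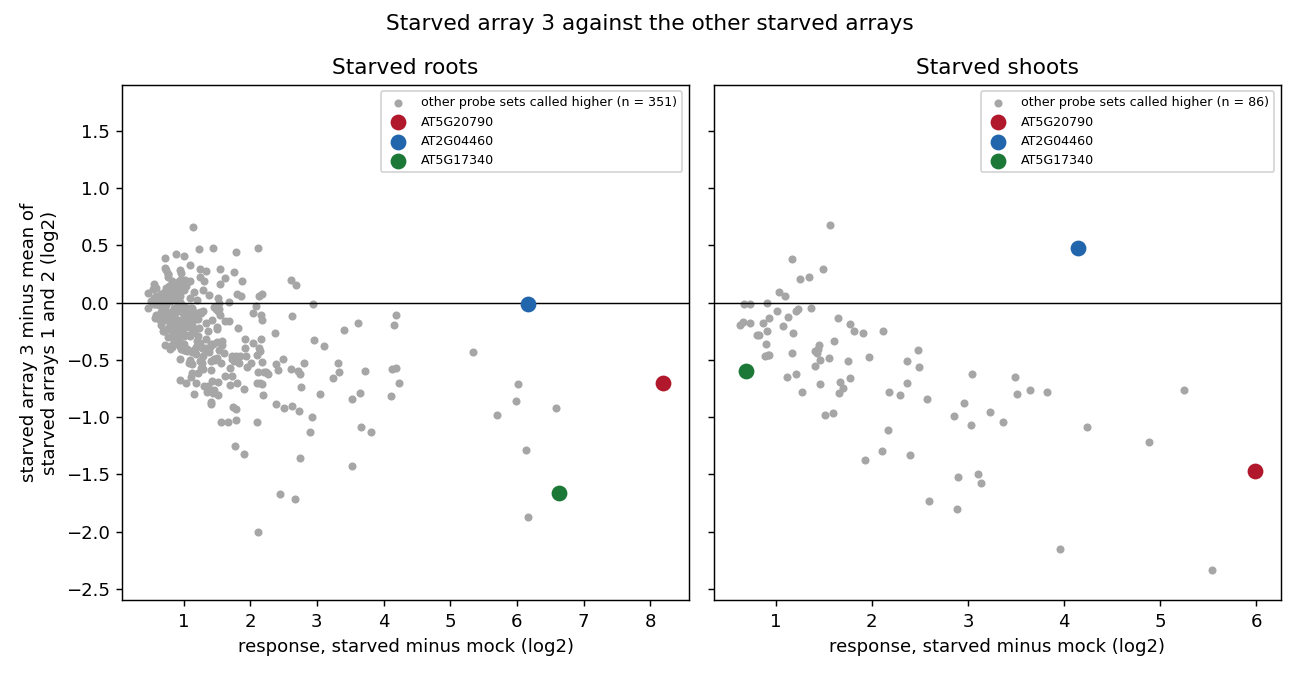
Starved array 3 minus the mean of starved arrays 1 and 2 (vertical axis, log2) against the response (horizontal axis, log2) in roots and shoots, for AT5G20790, AT2G04460 and AT5G17340 and for the other probe sets called higher (grey, 351 in roots and 86 in shoots). Most grey points lie below 0, as do AT5G20790 (-0.70 and -1.47) and AT5G17340 (-1.66 and -0.60), whereas AT2G04460 lies at -0.02 in roots and 0.48 in shoots.

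The 18 arrays were next used to ask which probe sets had profiles most like those of the 3 genes, by Pearson's r. All points share the 6 groups, so a high r mostly says that a probe set was high in the same groups. AT5G20790 and AT2G04460 had an r of 0.990 over 18 arrays (0.998 over the 9 root arrays and 0.976 over the 9 shoot arrays). Each was the named gene most like the other, and 18 of the 20 probe sets nearest to one were also among the 20 nearest to the other. AT5G17340 had an r of 0.765 with AT5G20790 and 0.766 with AT2G04460, and 0 of its 20 nearest were shared with either. Its r with AT5G20790 was 0.994 over the 9 root arrays and 0.835 over the 9 shoot arrays, and with AT2G04460 it was 0.988 and 0.753.

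After AT2G04460, the named genes most like AT5G20790 were AT1G19200 (r = 0.971), AT1G68670 (0.967), AT2G34210 (0.967) and AT5G19430 (0.963). The same 4 followed AT5G20790 in likeness to AT2G04460, with r between 0.943 and 0.962. They responded in both organs but by less: AT1G19200 by 3.53 in roots and 2.11 in shoots (SE 0.29), AT2G34210 by 2.71 and 1.50 (SE 0.25), AT5G19430 by 2.17 and 1.56 (SE 0.16), and AT1G68670 by 1.54 and 0.93 (SE 0.10). Of the 20 probe sets nearest to AT5G20790, 13 had no gene name here, 20 were called higher in starved roots and 17 in starved shoots, against 1.55% and 0.386% of all probe sets. Such counts follow from choosing by likeness.

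The genes most like AT5G17340 were OCT1 (r = 0.984), AT4G37220 (0.972), AT1G15600 (0.970), scpl22, a serine carboxypeptidase-like gene (0.964), and AT3G02100 (0.961), each over 18 arrays. OCT1 had a root response of 6.16 and a shoot response of 0.56 (SE 0.34), a pair of values close to those of AT5G17340. For scpl22 these were 3.53 and 0.25 (SE 0.28), and for the other three the root response lay between 2.11 and 2.24 and the shoot response between 0.00 and 0.52. Among the 20 probe sets nearest to AT5G17340, all were called higher by limma in starved roots and 0 in starved shoots (4 at an unadjusted p under 0.05), against 1.55% and 0.386% of all probe sets. Their shoot responses ran from -0.08 to 1.14 with a median of 0.07, and these counts too follow from choosing by likeness.

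**Figure D5:**
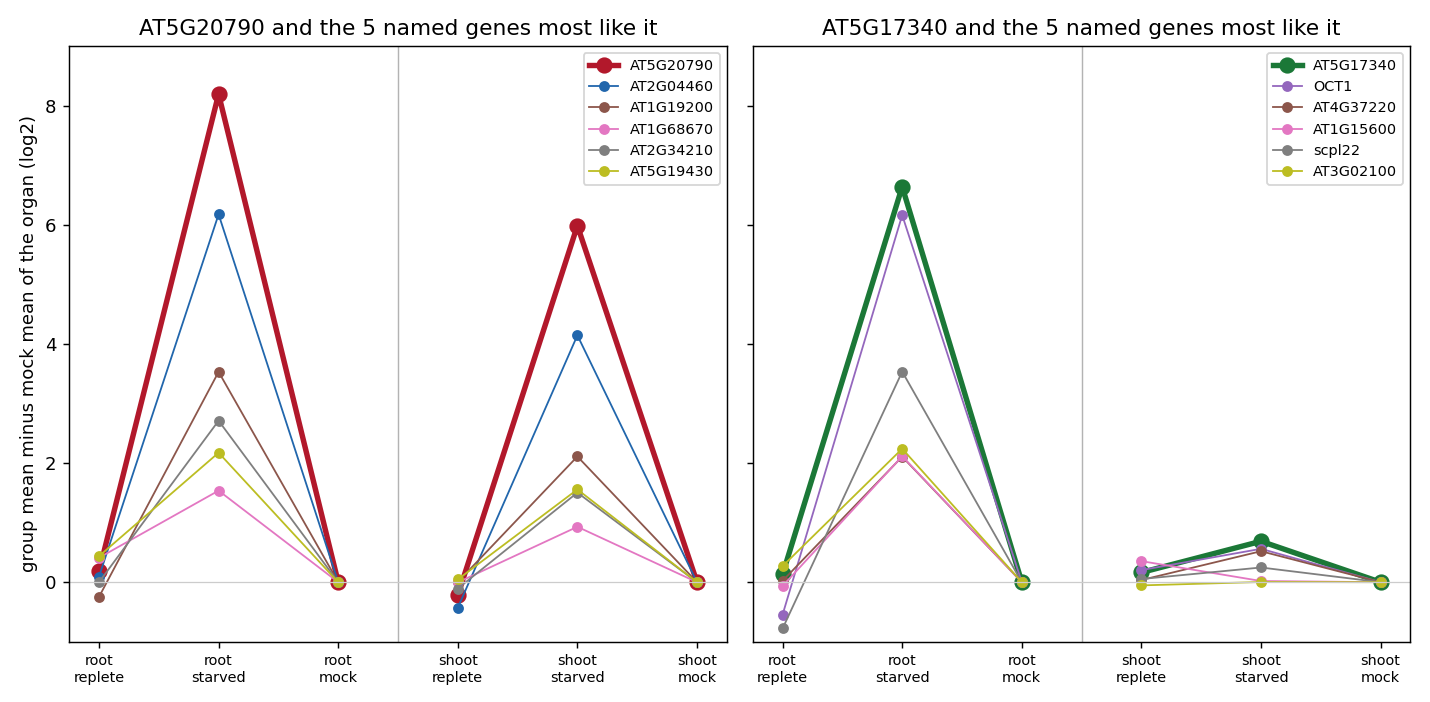
Group mean minus the mock mean of the same organ (vertical axis, log2) for AT5G20790 and the 5 named genes most like it over 18 arrays, and for AT5G17340 and the 5 most like it, by organ and condition. The genes nearest to AT5G20790 peak in both starved organs, with root responses of 1.54 to 6.17 and shoot responses of 0.93 to 4.14. Those nearest to AT5G17340 rise mainly in starved roots, with shoot responses of 0.56 or less.

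The genes next to the 3 on the chromosome were then read where they had values. Of the 2 annotated genes on each side of each gene, 12 in all, 5 had a probe set of their own, and none of these was called by limma in either response, against 2.26% of all probe sets in roots and 0.399% in shoots. None had an unadjusted p under 0.05 in either organ. The pseudogenes AT5G20770 and AT5G20800, on either side of AT5G20790, had root responses of 0.08 (SE 0.18) and 0.04 (SE 0.09). AT2G04440 and AT2G04480, around AT2G04460, had 0.02 (SE 0.14) and -0.15 (SE 0.19). AT5G17350, beyond AT5G17340, had the widest margin, at 0.27 (SE 0.30, adjusted p = 0.648) in roots and 0.33 (SE 0.30, adjusted p = 0.651) in shoots. The other 7 neighbours had no probe set named for them alone. Among them were AT5G20780, NUDT6, AT2G04470, GAD and AT5G17345, each directly beside one of the 3 genes. Of the directly adjacent genes, only AT5G20800 was read.

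AT2G04460 was chosen for its response, and other probe sets with the same annotation were set beside it. Of 923 probe sets whose gene RefSeq lists as a pseudogene, 1 was called higher in starved roots and 1 in starved shoots, and both calls were AT2G04460, which follows from that choice. The next largest root responses in this class were AT5G10850 at 0.84 (SE 0.18) and AT1G10160 at 0.52 (SE 0.14). Among 66 probe sets of the separate class of transcribed pseudogenes, 2 were called higher in roots and 0 in shoots (1 at an unadjusted p under 0.05), and among 12443 probe sets of protein-coding genes 171 and 35 were. Over all probe sets the shares were 1.55% in roots and 0.386% in shoots, and no difference between classes is read from these counts.

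Few other genes of the phosphate programme could be set beside the 3. Of 66 genes in lists of phosphate transport, signalling, phosphatases and RNases, lipid remodelling and related metabolism, 9 had a probe set named for them alone (10 probe sets), and the study named several of them from these samples. In starved roots 4 were called higher, against 1.55% of all probe sets, and 1 lower, against 0.706%. In starved shoots 1 was called higher, against 0.386%, and 0 lower by limma (2 at an unadjusted p under 0.05). The median root response of the lists was 0.63, and that of all probe sets 0.03.

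The 4 called higher in starved roots were AT3G25790 (1.79, SE 0.23, adjusted p = 7.83e-05) and AT1G68670 (1.54, SE 0.10, adjusted p = 3.07e-08) from the signalling list, AT1G13750 from the phosphatase list (1.68, SE 0.18, adjusted p = 1.14e-05) and AT1G63010 from the transport list (0.77, SE 0.13, adjusted p = 0.000673). AT1G73600, from the lipid list, was lower (-2.50, SE 0.18, adjusted p = 1.12e-07). AT1G68670, the gene that also ranked among the nearest profiles to AT5G20790, was the list's 1 call in starved shoots (0.93, SE 0.10, adjusted p = 3.61e-05). Among the 9 measured list genes the largest root rise was 1.79, against 6.17 or more for the 3 genes. The other list genes had no probe set named for them alone, so the 3 genes cannot be ranked against the whole programme. Probe sets without a gene name rose by up to 6.58 in roots.

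In the root recovery 3 list genes were called lower, against 2.78% of all probe sets. They were AT1G13750 (-2.07, SE 0.18, adjusted p = 8.87e-07), AT1G68670 (-1.13, SE 0.10, adjusted p = 8.64e-07) and LPR1, which acts in the root growth response to low phosphate (-1.06, SE 0.14, adjusted p = 5.83e-05). AT1G73600 was called higher (2.27, SE 0.18, adjusted p = 2.89e-07), against 2.35%. In the shoot recovery 2 were called lower, against 0.601%, and 0 higher by limma (1 at an unadjusted p under 0.05). The 2 called lower were AT1G68670 (-0.93, SE 0.10, adjusted p = 2.61e-05) and AT1G13750 (-1.33, SE 0.18, adjusted p = 0.000383).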

How the data were processed

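Total RNA of roots and shoots was hybridised to ATH1 arrays, 1 colour and 1 array per sample. The authors deposited log2 values, which the submitters' processing notes credit to affy (its version is not given in the sources used here). The study's methods describe a background correction, then quantile normalization over the arrays, then one median-polish value per probe set. No pseudocount or further transformation was applied here. Scanner files were not used, so detection above background was not examined. Precision is limited by the number of arrays.

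Names came from the platform table where it gave 1 gene (13513 of 22810, with 503 given several and 8794 none), and 13436 matched the RefSeq table (assembly TAIR10.1), used for biotypes and neighbours only. A probe set without a name is not one without a gene.

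One mean per group was fitted to all 18 arrays and all probe sets in R 4.3.3 using limma 3.58.1 (lmFit, then eBayes; 12 residual degrees of freedom, 16.5 after moderation). Tests were two-sided with Benjamini-Hochberg adjustment over all 22810 probe sets within a contrast. The study's methods name Bonferroni, which was run as an alternative. Replete minus mock, and its difference between organs, had been planned as tests but is the sum of response and recovery, on which the genes were chosen, so no p is given for it. Confidence intervals are at 95%. The fit was tested on simulated data. The genes, lists and comparisons were chosen with earlier results of these data known. Besides the 3 genes, the text names up to 4 list genes per contrast by p, the 5 named genes most like each by r, and 2 annotated neighbours on each side. Genes used to place a comparison by rank or biotype were named after their values were seen. Alternatives covered adjustment, threshold, pairing, normalization, scaling, variance model, array weights, dim probe sets and each array left out.

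Replicate numbers were checked by correlating same-numbered arrays' deviations from their group means, which gave -0.11 to 0.45 over 24 pairs. All 3 pairs exceeded 0.1 only between replete and mock shoots, so the numbers were taken to pair samples there from the data, not from the labels. The main fit did not use this pairing, which entered only through the replicate block among the alternatives. Promoter and protein sequences were not used here, so the planned search for PHR1 and WRKY binding motifs and for related proteins was not run.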

Additional observations from a re-analysis of the deposited data

How the results depend on the processing

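Of 300 values for the responses and recoveries of the 3 genes under other settings, 299 moved by less than the spread between replicates, here the pooled SD of the 2 groups in that difference. The largest such moves came without starved array 3, where the root response of AT5G17340 was 7.19 (6.64 with all arrays, pooled SD 0.69) and the shoot response of AT5G20790 was 6.47 (5.98 with all arrays, pooled SD 0.61). The exception was the shoot recovery of AT2G04460, at -4.285 when arrays were centred on control probe sets. Many of the 300 could not move. Leaving out an array of another group, the replicate block and fitting 1 organ leave them unchanged by design. Of 417 values among replete and mock plants, 399 kept direction and side of the threshold. Many are of replete minus mock, given no test here. Neither 299 nor 399 therefore measures stability. For AT5G20790, mock roots against mock shoots passed at an adjusted p at or under 0.05 (-0.88), with array weights (-0.98, adjusted p = 0.000545) and, in a setting chosen after seeing the data, with both starved arrays 3 left out (-0.88, adjusted p = 1.25e-05). With 1 array left out this difference ran from -0.96 to -0.81 and passed only without starved shoot array 3. Its limma adjusted p ran from 1.25e-05 to 0.0513 over all alternatives other than Bonferroni, which it did not pass. For AT2G04460 the same comparison failed Bonferroni at 0.001 in limma (-0.89, Bonferroni-adjusted p = 0.336) and otherwise had adjusted p from 3.44e-07 to 0.000629. Its difference in replete plants passed at 0.05 (-0.37). Some differences near 0 changed sign, and the cause was not tested. These were AT2G04460, replete against mock roots, with control probe set centring (-0.0083), and AT5G17340, root against shoot, in mock plants with reference gene centring (-0.0876) and in replete plants with reference genes (-0.18), control probe sets (-0.05) and array weights (-0.0021). With 1 array left out, that replete difference of AT5G17340 ran from -0.0383 to 0.187 and its interaction from -0.138 to 0.0867. A replicate block changed no call of the 3 genes (AT2G04460, mock roots against mock shoots, -0.89, adjusted p = 0.000101).

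List genes called in the root response numbered 4 higher, against 1 with Bonferroni, 2 from root arrays alone and 5 with the replicate block. The shoot response gave 1 higher, against 0 with Bonferroni or shoot arrays alone, 2 with the 0.05 threshold, trended variances, array weights or both starved arrays 3 left out, and 1 to 2 with 1 array left out. At 0.05 the shoot response gave 1 lower and the root recovery 3 higher and 6 lower, and array weights gave 2 higher in the root recovery. The shoot recovery gave 2 lower, against 0 with Bonferroni, control centring or shoot arrays alone and 1 to 2 with 1 array left out. Over all probe sets, calls in the root response (515) ran from 125 with Bonferroni to 2220 at 0.05, and in the shoot response (91) from 32 with shoot arrays alone to 883 at 0.05. Calls in the root recovery (1169) ran from 165 with Bonferroni to 5993 at 0.05 and in the shoot recovery (161) from 41 with shoot arrays alone to 1983 at 0.05. Bonferroni left 4976 of 9744 calls between organs in mock plants and 5157 of 10481 in replete plants.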
